A study of Mus musculus with 69 samples.

Results

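The clustered protocadherins are cell-surface adhesion genes that lie side by side in 3 clusters, α, β and γ, on mouse chromosome 18. Members were chosen by symbol alone, and 58 of the 55964 gene identifiers in the tables carried such a symbol: 14 in the α cluster, 22 in the β cluster and 22 in the γ cluster. RNA-seq of whole pituitary, hypothalamus and ovary was available from female C57BL/6J mice of 3 genotypes at Zeb1, a gene for a transcriptional repressor. Zeb1_WT mice carried the unaltered gene, Zeb1_200H mice (200H) were heterozygous and Zeb1_200M mice (200M) were homozygous for a knock-in allele whose 3′ UTR has base changes in its sites for the miR-200a and miR-200b microRNA families. The allele was in the germline and so in every cell, came from targeted embryonic stem cell clones and had been backcrossed to C57BL/6J. The young cohort held 35 libraries from virgin females of 8 to 12 weeks, and the older cohort held 34 libraries from females of 28 to 36 weeks taken after a breeding trial. Each group had 4 libraries, except young WT pituitary, older 200M pituitary and older 200M hypothalamus, which had 3. Young libraries were made from ribosome-depleted total RNA with strand kept, and older libraries from poly(A) RNA without strand, so that age, breeding history and library chemistry cannot be told apart between the cohorts. By the study's methods, the replicates of a group came from different mice, and all mice were taken at proestrus, as staged by vaginal cytology. Each cohort drew on both of the study's clone lines, and the line of each library is not given here.

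Protocadherins of these clusters are best known from neurons, where each cell uses only some of the genes, picked promoter by promoter with the help of CTCF and cohesin, and where like proteins on facing membranes bind one another. This lets a neuron tell its own branches from those of its neighbours and shapes synapses and cell survival. In the α and γ clusters each variable exon, which encodes the extracellular, membrane-spanning and first cytoplasmic part, has its own promoter and is spliced to constant exons shared by the whole cluster. The C-type members (Pcdhac1, Pcdhac2, Pcdhgc3, Pcdhgc4 and Pcdhgc5) stand at the ends of these arrays and are used more evenly from cell to cell. The β genes are single-exon genes with no constant part.

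The knock-in acts on the 3′ UTR sites of miR-200, so the 3 mature microRNAs below show the seeds, bases 2 to 8, in capitals (RefSeq, GRCm38.p6, all on the - strand, at chr4:156055685-156055706, chr4:156054911-156054932 and chr6:124718324-124718346).
miR-200b-3p: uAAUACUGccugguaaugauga
miR-200a-3p: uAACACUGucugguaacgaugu
miR-200c-3p: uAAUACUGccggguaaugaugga
miR-200b and miR-200c carry one seed and miR-200a another. The longest seed match (the 8mer, CAGTATTA for miR-200b and miR-200c and CAGTGTTA for miR-200a, both read on the mRNA strand) was searched in the annotated 3′ UTRs. The miR-200a 8mer was found in 4 of 22 β members (Pcdhb6, Pcdhb11, Pcdhb14 and Pcdhb19, 18.2%) and in 3.99% of 21132 genes with an annotated 3′ UTR. The miR-200b 8mer was found in 0 members and in 3.31% of those genes, and 0 α or γ members held either match. The α 3′ UTR is 2401 bases long and the γ 3′ UTR 1741 to 1744, while those of the β members range from 71 to 6117 bases (median 1213, against 953 for all genes). Only letters were matched here, and a match does not show a site in use.

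In GRCm38 (mm10) with GENCODE M21 annotation, the α cluster lay at chr18:36930184-37187661, the β cluster at chr18:37264938-37524479 and the γ cluster at chr18:37661793-37841873, with every member on the + strand. Zeb1 itself lies on the same chromosome at chr18:5591860-5775467, 31.2 Mb from the α cluster. The members of the α cluster shared 2860 to 2864 exon bases with one another and those of the γ cluster 2116 to 2119. Among β members, the only shared exon bases were 455 between Pcdhb21 and Pcdhb22. The symbol Pcdha11 stood on 2 identifiers (ENSMUSG00000007440 and ENSMUSG00000102206), which were kept apart, and ENSMUSG00000007440 lay nearest to the RefSeq gene Pcdha10.

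How the reads of shared exons were counted decided what an α or γ value meant. In 4 of the 6 sets of libraries (the 3 young tissues and older ovary), the members of a cluster held most of their counts in common, and the lowest member held 86.7% to 97.1% of the counts of an average member. In young WT pituitary, for example, the lowest α member held 1023 to 1161 reads and the lowest γ member 2166 to 2735, and the highest member exceeded the lowest by a median of 1.11 times in the α cluster and 1.24 times in the γ cluster. Over the 4 sets and 3 genotypes this ratio ran from 1.10 (young 200H pituitary) to 1.45 (young 200M ovary) in the α cluster and from 1.19 (young 200H hypothalamus) to 1.55 (older WT ovary) in the γ cluster. In those sets the lowest member is given as the cluster's common reads. A member's own-exon count was taken as its count minus that of the lowest member in the same library, an approach chosen after seeing the data. In older pituitary and older hypothalamus, reads of shared exons were counted for no member, so each α or γ value came from the member's own exon. Without strand, bases under an antisense gene were lost as well, from 4 α and 8 γ members. Pcdhga11, for example, kept 1256 of 2637 own bases. Pcdhga10, all of whose own bases lie under the antisense gene Gm26672, was at 0 in all 22 libraries of these 2 sets, and Pcdhb12 kept 1107 of 3034 bases beside the antisense gene Gm37446. Apart from Pcdhb12 and the bases shared by Pcdhb21 and Pcdhb22, each β member was counted over its whole exon sequence in both cohorts.

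**Figure D1:**
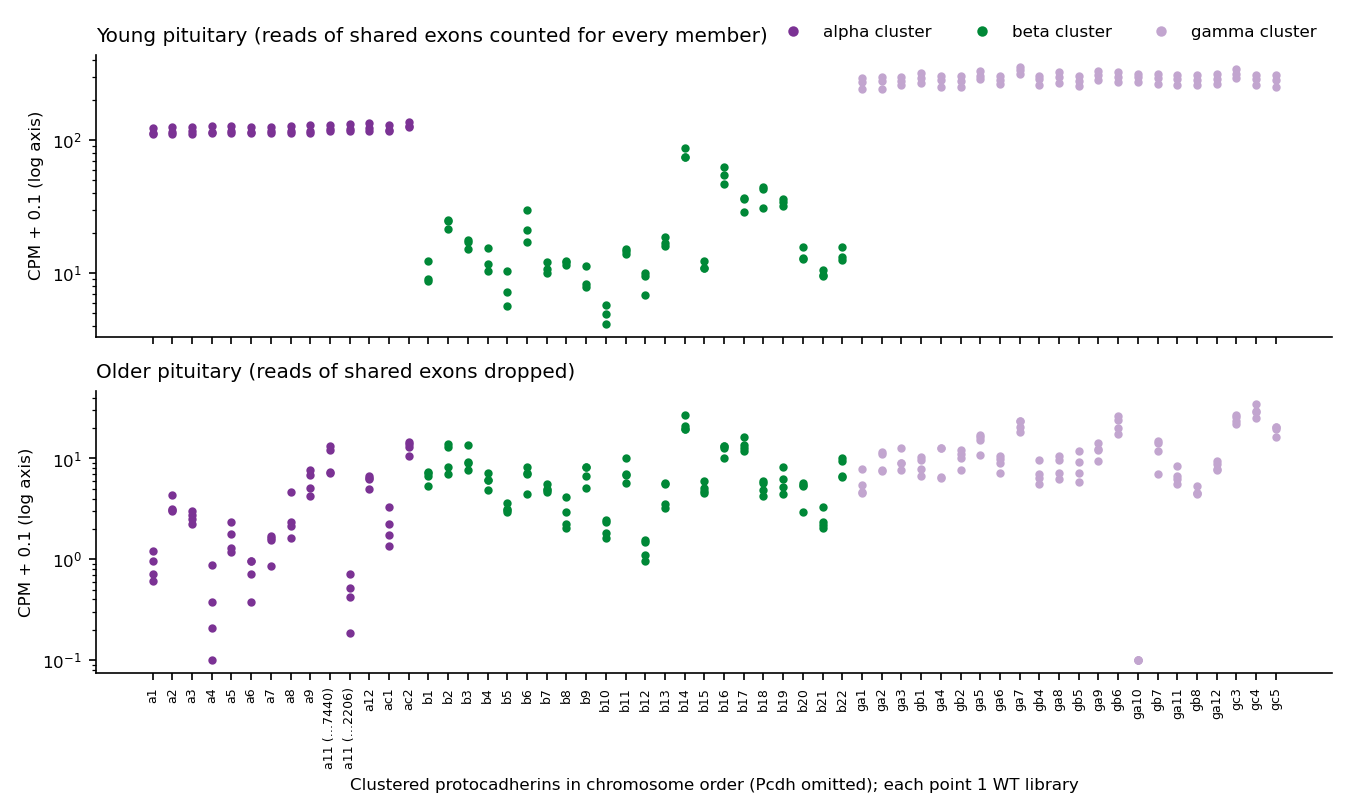
Level in CPM (a gene's counts scaled to the total of its library, plus 0.1, on a log axis) of all 58 clustered protocadherins in chromosome order in WT pituitary, 1 point per library, for the young cohort (upper panel) and the older cohort (lower panel), with the 3 clusters in different colours. In the young cohort the α and γ members form flat plateaus because the reads of shared exons were counted for every member. In the older cohort each α and γ member stands at the level of its own exon, without any bases under an antisense gene.

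Libraries held 3321845 to 14655095 counts, with the lowest depth in young hypothalamus (at most 5143128). Zeb1 stood at 95.6 to 98.5 CPM in young WT pituitary, 126 to 135 in 200H and 132 to 141 in 200M, and at 55.3 to 62.7, 70.1 to 76.1 and 80.6 to 93.0 CPM in the older cohort. It was higher in 200M than in WT pituitary in both cohorts (log2 fold change 0.52, SE 0.06, adjusted p = 2.39e-05 in young and 0.55, SE 0.09, adjusted p = 0.000833 in older; edgeR's quasi-likelihood test with Benjamini-Hochberg adjustment over all genes tested, as for all adjusted p below) and did not pass in hypothalamus or ovary. The marker counts that follow stand beside the shares of all genes called in young and older 200M pituitary. These shares were 21.5% and 21.4%, with 11.5% and 11.7% higher and 10.0% and 9.77% lower. Of 8 neuronal markers, 7 rose in young and 8 in older 200M pituitary. Their sum was 1212 to 1243 CPM in young WT, 1477 to 1662 in 200H and 1678 to 1823 in 200M, and 762 to 807, 997 to 1160 and 1250 to 1377 in the older cohort. These sums lay mostly in Snap25, Map2 and Syt1, with young WT means of 486, 396 and 301 CPM and young 200M means of 597, 732 and 345. In young WT pituitary Elavl3 had a mean of 6.09 CPM, Tubb3 7.18 and Stmn2 1.61. Of 7 endocrine markers, 4 fell in young 200M pituitary, and 3 fell and 1 rose in older 200M pituitary, with sums of 163805 to 187183 CPM in young WT, 68017 to 87659 in young 200M, 289890 to 321966 in older WT and 162012 to 210952 in older 200M. The fall in these sums lay mostly in Prl, with WT and 200M means of 142304 and 46233 CPM in young and 194821 and 61463 in older pituitary. Mean Gh was 28144 and 29926 CPM in young and 104628 and 104757 in older pituitary. Mean Pomc was 759 and 755 CPM in young and 9808 and 19957 in older pituitary. Among other lists in 200M pituitary, 2 of 6 astrocyte and pituicyte markers rose in each cohort (139 to 155 CPM summed in WT and 166 to 192 in 200M in young, 90.0 to 101 and 114 to 156 in older). Macrophage markers rose for 1 of 2 tested in young (13.9 to 17.5 and 20.3 to 24.6) and 2 of 3 in older pituitary (33.9 to 45.7 and 50.1 to 69.4). Of the oligodendrocyte lineage markers tested, 1 of 4 fell in young (91.3 to 98.7 and 63.7 to 70.1) and 2 of 5 rose and 1 fell in older pituitary (74.3 to 107 and 75.4 to 79.9). Of 4 endothelial markers, 0 were called in young (167 to 182 and 190 to 205) and 1 rose in older (159 to 212 and 181 to 222). Of 2 genes of the ovary list tested, 1 fell in young (56.9 to 58.4 and 45.4 to 54.9) and 1 rose and 1 fell in older (47.4 to 65.6 and 43.3 to 46.3). These were Inha and Foxl2, which held means of 33.8 and 23.2 CPM in young WT pituitary itself. Hypothalamic neuropeptide genes summed to 1.45 to 4.19 CPM in young WT and 1.27 to 2.97 in young 200M pituitary, and to 5.21 to 7.78 and 11.3 to 14.9 in the older cohort (1 of 2 tested rose). Their sum in hypothalamus was 283 to 1365 CPM. In older WT and 200M pituitary, mean Oxt was 3.79 and 9.11 CPM, Agrp 1.09 and 1.85 and Avp 1.23 and 1.26. Pmch was at 0 in every older pituitary library. The part of these cell types in the protocadherin values was not tested, and in whole tissue fewer cells of a type and less RNA per cell cannot be told apart.

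All 3 tissues expressed clustered protocadherins. Levels across tissues and cohorts came from tables normalised separately, so they are set side by side without a test. In WT young hypothalamus the α cluster's common reads stood at a mean of 138 CPM and in WT young pituitary at 117 ± 6.90 CPM (SD, n = 3), but in WT young ovary at 3.84 CPM. The γ cluster's common reads stood at 225 ± 10.4 CPM (SD, n = 4) in young WT hypothalamus, 269 ± 25.5 (SD, n = 3) in young WT pituitary and 156 ± 11.8 (SD, n = 4) in young WT ovary. Summed over the 22 β members, young WT pituitary held 460 ± 16.8 CPM (SD, n = 3), hypothalamus 381 ± 23.4 (SD, n = 4) and ovary 264. The ovary held few α reads beside its β and γ reads.

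Within the β cluster the order of the members differed between tissues. Per kilobase of exon that could be counted, Pcdhb16 stood highest in young WT pituitary (10.5 CPM per kb), followed by Pcdhb14 (9.07) and Pcdhb2 (8.41), and Pcdhb10 stood lowest (1.71). Pcdhb18 led young WT hypothalamus (9.28 CPM per kb) and Pcdhb16 led young WT ovary (5.28). Pcdhb1, the first member of the β array, was lowest in hypothalamus and ovary in both cohorts (0.134 to 0.741 CPM per kb). In CPM, its WT mean was 9.93 in young pituitary, 1.92 in young hypothalamus and 0.347 in young ovary, and 6.55, 1.07 and 0.406 in the older cohort. The rank correlation of β levels per kilobase, over 22 members, was 0.89 between young hypothalamus and young ovary, 0.56 between young pituitary and young hypothalamus and 0.38 between young pituitary and young ovary. In the older cohort it was 0.39 between hypothalamus and ovary, 0.11 between pituitary and hypothalamus and 0.17 between pituitary and ovary. Between the cohorts it was 0.58 in pituitary, 0.24 in hypothalamus and 0.23 in ovary, so that the order of the members also differed between the cohorts within a tissue. Library chemistry also differed between the cohorts. Older ovary was counted by another program than older pituitary and hypothalamus, and over other bases for Pcdhb12, Pcdhb21 and Pcdhb22. The part of library chemistry and counting in these correlations was not tested. In older WT pituitary the highest β members were Pcdhb2 (3.70 CPM per kb) and Pcdhb17 (2.90) and the lowest Pcdhb21 (0.558).

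In the young pituitary, which asks what loss of miR-200 control over Zeb1 does before breeding, homozygous mice differed from WT in a few β members while the clusters as wholes kept their levels. Pcdhb9 rose and Pcdhb1, Pcdhb3 and Pcdhb14 fell. These 4 were the members called among 58 tested (adjusted p under 0.05), where 21.5% of 18199 genes were called, 11.5% higher and 10.0% lower, and 9 members had an unadjusted p under 0.05, against 32.4% of genes. The β sum was 460 ± 16.8 CPM in WT (SD, n = 3), 450 ± 10.0 in 200H (SD, n = 4) and 469 ± 29.9 in 200M (SD, n = 4). The common reads stood at 117 ± 6.90, 111 ± 6.19 and 110 ± 4.38 CPM in the α cluster and at 269 ± 25.5, 284 ± 6.79 and 286 ± 14.0 CPM in the γ cluster. None of the 14 α or 22 γ members was called in either genotype, with log2 fold changes of -0.08 to -0.06 for the 12 α members that are not C-types and 0.08 to 0.11 for the γ A and B members in 200M. Of the α members with the smallest p, Pcdha12 held 118, 123 and 134 CPM in WT, 110, 126, 121 and 118 in 200H and 124, 117, 116 and 113 in 200M, and Pcdha1 held 111, 114 and 124, then 102, 117, 113 and 111, and then 117, 109, 109 and 107. Pcdha11 (ENSMUSG00000102206) held 118, 122 and 133 CPM in WT, 109, 123, 120 and 119 in 200H and 123, 117, 117 and 115 in 200M. The 3 genes rose and fell together from library to library, which follows from the counting of shared exons. In WT the lowest α member held 96.6% of the counts of an average member, and the lowest γ member 92.7%. The γ members with the smallest p were bound together in the same way: Pcdhga5 held 305, 287 and 330 CPM in WT and 341, 312, 318 and 339 in 200M, Pcdhga4 284, 250 and 305 in WT and 316, 282, 293 and 307 in 200M, and Pcdhgb5 278, 257 and 305 in WT and 311, 282, 292 and 306 in 200M.

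Pcdhb9 (ENSMUSG00000051242, a single exon at chr18:37400855-37403909) held 11.3, 7.83 and 8.15 CPM in the 3 young WT pituitary libraries. In 200H it held 15.3, 13.1, 13.1 and 13.7 CPM, and in 200M 16.1, 16.0, 16.8 and 20.2. Every mutant library stood above every WT library, and every 200M library above every 200H library. The fold change was 1.90 in 200M (log2 0.93, SE 0.15, adjusted p = 0.000525), and the call was kept in all 13 alternative settings. Pcdhb9 made up 1.99% of the β reads in WT, 3.07% in 200H and 3.70% in 200M.

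Pcdhb1 (ENSMUSG00000051663, chr18:37264938-37267525) moved the other way. It held 8.68, 12.2 and 8.90 CPM in WT, 6.19, 7.38, 9.38 and 8.77 in 200H, and 5.45, 5.28, 5.27 and 5.72 in 200M. The 200M libraries lay close together and below all others, while the 200H libraries overlapped WT. The level in 200M was 0.552 of WT (log2 -0.86, SE 0.17, adjusted p = 0.00208), kept in all 13 alternatives, and 200H did not pass (log2 -0.32, adjusted p = 0.325). Its share of β reads was 2.15% in WT, 1.76% in 200H and 1.16% in 200M.

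Pcdhb3 (ENSMUSG00000045498, chr18:37300799-37304585) held 15.2, 17.1 and 17.8 CPM in WT, 12.2, 11.1, 13.0 and 12.1 in 200H and 11.8, 13.7, 12.0 and 10.8 in 200M, with no overlap between WT and either mutant. It was at 0.734 of WT in 200M (log2 -0.45, SE 0.12, adjusted p = 0.0181). Pcdhb14 (ENSMUSG00000044043, chr18:37447656-37456350), a member that holds the miR-200a 8mer letters, had 75.3, 74.5 and 86.7 CPM in WT. It had 59.8, 62.7, 60.6 and 62.5 CPM in 200H and 68.7, 68.7, 50.5 and 59.0 in 200M, again all below WT. The fall in 200M was to 0.791 of WT (log2 -0.34, SE 0.10, adjusted p = 0.0303), and its share of β reads went from 17.2% to 13.7% in 200H and 13.1% in 200M. Both calls rested on single libraries. Without the WT library of column number 3, a number that none of the group's sample titles (1, 2 and 4) carries, adjusted p was 0.0784 for Pcdhb3 and 0.147 for Pcdhb14, and for Pcdhb14 it was 0.0528 without WT replicate 1, 0.0917 without 200M replicate 3 and 0.0623 without 200M replicate 4.

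**Figure D2:**
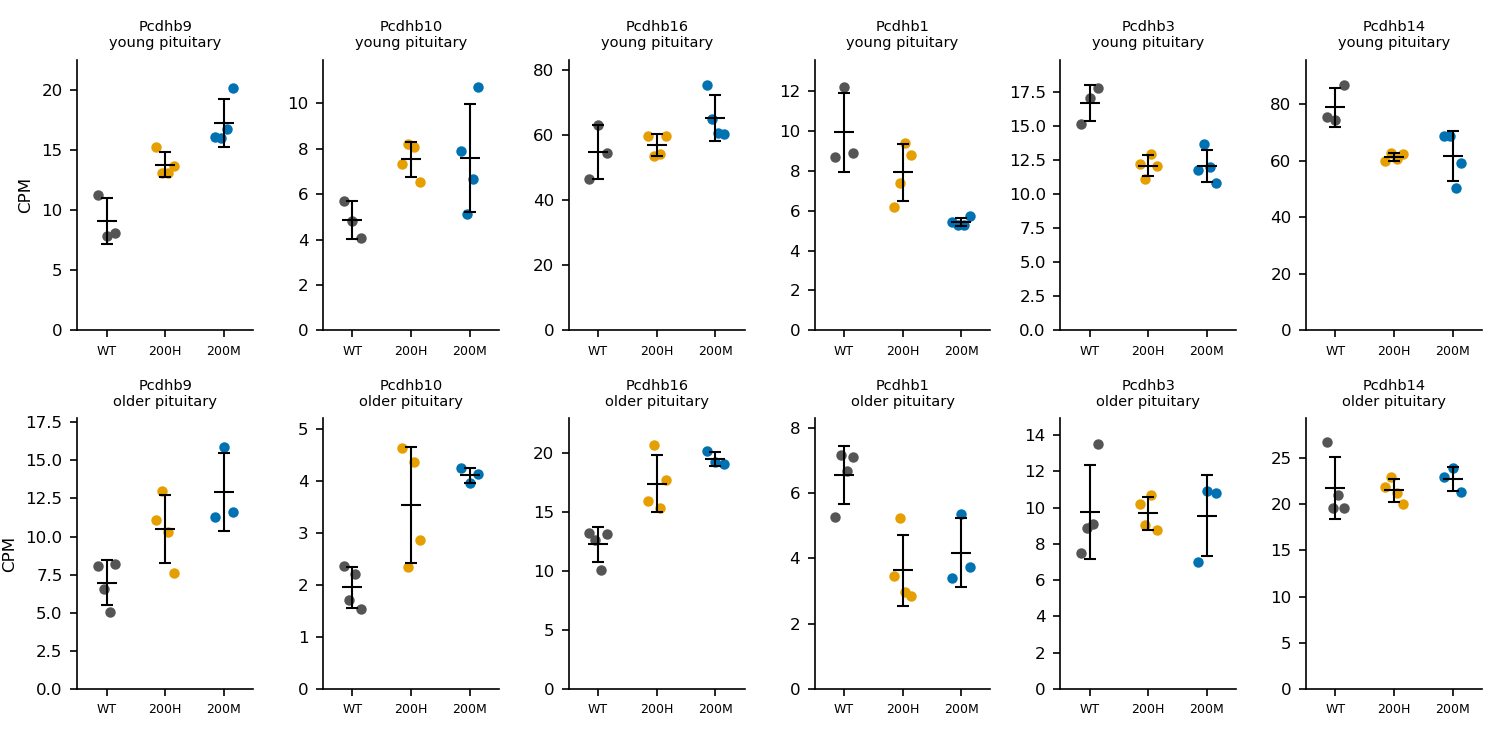
Level of 6 β protocadherins (CPM, 1 panel per gene, axes from 0) in every pituitary library of the young cohort (upper row) and the older cohort (lower row) by genotype, with the mean and SD of each group. Pcdhb9 stood above all WT libraries in every 200M library of both cohorts, and Pcdhb1 in the young cohort stood at 5.27 to 5.72 CPM in 200M against 8.68 to 12.2 in WT.

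In young heterozygous pituitary the called members were again β genes, and 3 of the 4 were also called in homozygotes, a comparison that shares the WT libraries. Pcdhb9 (log2 0.61, SE 0.16, adjusted p = 0.0235) and Pcdhb10 (log2 0.64, SE 0.19, adjusted p = 0.0406) rose, and Pcdhb3 (log2 -0.45, SE 0.12, adjusted p = 0.0298) and Pcdhb14 (log2 -0.35, SE 0.08, adjusted p = 0.0125) fell, where 12.3% of 18051 genes were called, 6.56% higher and 5.72% lower, and 5 members had an unadjusted p under 0.05, against 25.5% of genes. Pcdhb10 (ENSMUSG00000045657, chr18:37411664-37414514), the member next to Pcdhb9 on the chromosome, held 5.72, 4.81 and 4.07 CPM in WT, 7.31, 8.22, 8.08 and 6.55 in 200H and 7.91, 5.11, 6.66 and 10.7 in 200M. Its 200H libraries stood clear of WT, whereas its 200M libraries overlapped WT and did not pass (log2 0.63, SE 0.24, adjusted p = 0.0789). These calls were fewer with any of several libraries left out: 0 remained without the WT library of column number 3, 1 without WT replicate 2, 1 without 200H replicate 1, and 2 without 200H replicate 2 or replicate 4. Between the 2 mutant genotypes 0 of 58 members were called by edgeR, with 3 at an unadjusted p under 0.05 (5.92% of genes) and 0 called by DESeq2, and 0.0383% of 18271 genes were called there.

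In the older pituitary, taken after a breeding trial, more β members had values above WT than below it in 200M, and γ members with values below WT outnumbered those above. Pcdhb9, Pcdhb10 and Pcdhb16 rose and Pcdhgb8, Pcdhga9 and Pcdhga12 fell. These 6 were called among the 51 members that passed the filter on low counts (7 of 58 did not), where 21.4% of 14711 genes were called, 11.7% higher and 9.77% lower. Of 21 β members tested, 16 had a fold change above 0 (median log2 0.42, against -0.01 for all genes), and 11 had an unadjusted p under 0.05 (34.6% of all genes), 10 of them higher. The β sum was 151 ± 11.2 CPM in WT (SD, n = 4), 176 ± 9.09 in 200H (SD, n = 4) and 184 ± 16.1 in 200M (SD, n = 3). Every 200M library (173 to 203 CPM) exceeded every WT library (136 to 161). Gene length moved with this comparison: split by exon length, the quartiles of all genes had median log2 fold changes of -0.12, -0.04, 0.01 and 0.10 from the shortest to the longest, and the part of length in the β values was not tested. The α members had a median of -0.24 with 0 called of 7 tested, and the γ A and B members a median of -0.18 with 3 called of 18.

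Pcdhb9 held 8.06, 6.58, 5.05 and 8.18 CPM in older WT pituitary, 11.1, 13.0, 10.3 and 7.62 in 200H and 11.3, 15.9 and 11.6 in 200M. The 200M libraries stood above WT and 1 of the 200H libraries lay within it. The rise in 200M was 1.85-fold (log2 0.89, SE 0.20, adjusted p = 0.00795), and adjusted p was 0.0655 without 200M replicate 2. Pcdhb10 held 2.36, 1.71, 2.22 and 1.53 CPM in WT, 4.63, 2.35, 4.36 and 2.86 in 200H and 4.25, 3.96 and 4.14 in 200M, from 11 to 40 reads per library. It was 2.15-fold higher in 200M (log2 1.10, SE 0.25, adjusted p = 0.00870), a call kept in all 12 alternatives.

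Pcdhb16 (ENSMUSG00000047910, chr18:37477814-37483038), the β member with the highest level per kilobase in young pituitary, held 13.2, 12.6, 10.1 and 13.1 CPM in older WT pituitary. It held 15.9, 20.7, 15.3 and 17.7 CPM in 200H and 20.2, 19.2 and 19.1 in 200M, with no overlap of either mutant with WT. It was 1.57-fold higher in 200M (log2 0.65, SE 0.13, adjusted p = 0.00476), kept in all 12 alternatives, and it did not pass in young 200M pituitary (log2 0.27, adjusted p = 0.0805). Pcdhb20 stood just outside the threshold in older 200M pituitary (log2 0.72, SE 0.24, adjusted p = 0.0535), with 5.28, 5.30, 2.83 and 5.56 CPM in WT and 5.94, 9.98 and 7.87 in 200M. Pcdhb1 was lower in the means and did not pass in 200M (log2 -0.62, adjusted p = 0.0663).

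**Figure D3:**
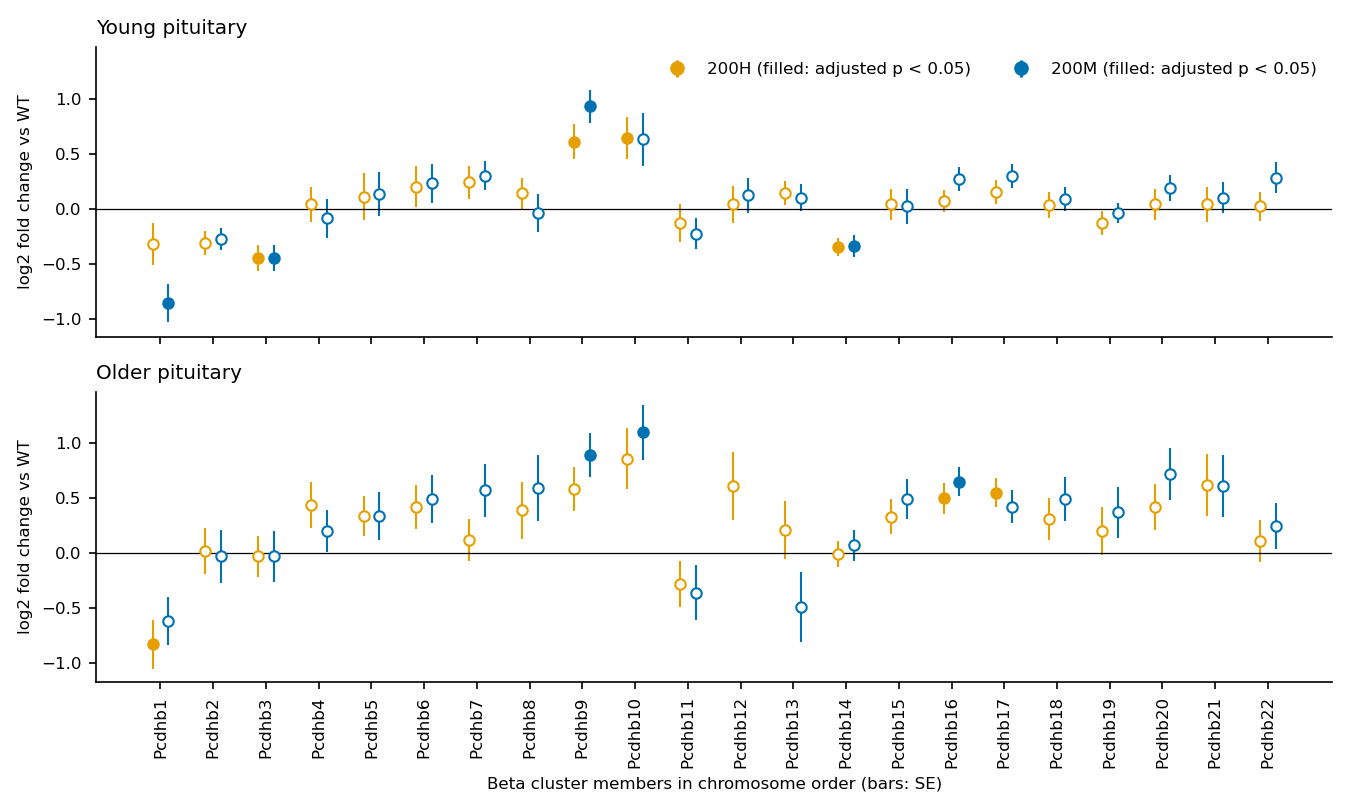
Log2 fold change against WT (points, with bars of 1 standard error) of each β member in chromosome order in young (upper panel) and older pituitary (lower panel), for 200H and 200M, with filled points where the adjusted p was under 0.05. In both cohorts Pcdhb9 and Pcdhb10 lie above 0 and Pcdhb1 below 0, and in the older cohort 16 of 21 members tested in 200M lie above 0.

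The γ members that fell in older 200M pituitary were counted by their own exons. Pcdhgb8 (ENSMUSG00000103081, first exon at chr18:37761801-37764299, annotated as a polymorphic pseudogene) held 4.45, 4.36, 5.26 and 4.47 CPM in WT, 3.82, 3.41, 2.77 and 2.65 in 200H and 2.76, 2.05 and 1.24 in 200M. All mutant libraries lay below WT, on 6 to 51 reads per library. It was at 0.442 of WT in 200M (log2 -1.18, SE 0.27, adjusted p = 0.00891), kept in all 12 alternatives. Pcdhga9 (ENSMUSG00000102440, first exon at chr18:37736936-37739543) held 9.31, 12.1, 12.3 and 14.2 CPM in WT, 13.3, 7.14, 7.33 and 7.41 in 200H and 6.16, 8.06 and 7.25 in 200M. The 200M libraries lay below WT, and 1 of the 4 200H libraries stood within it (log2 -0.73, SE 0.18, adjusted p = 0.0148 in 200M). Adjusted p was 0.0638 without 200M replicate 1 and 0.0534 without 200M replicate 3.

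Pcdhga12 (ENSMUSG00000102428, first exon at chr18:37765580-37768540) held 9.31, 7.52, 8.69 and 7.74 CPM in WT, 6.83, 6.51, 7.73 and 5.29 in 200H and 5.52, 5.37 and 5.59 in 200M. Its 200M libraries lay together below all WT libraries (log2 -0.59, SE 0.18, adjusted p = 0.0335), but the call was lost without WT replicate 1 (0.0598), WT replicate 3 (0.0620), 200M replicate 1 (0.0835), 200M replicate 2 (0.119) or 200M replicate 3 (0.0891). In the young cohort the own-exon counts of these 3 genes gave log2 fold changes in 200M of 0.06 for Pcdhgb8 (SE 0.14, adjusted p = 0.802), -0.14 for Pcdhga9 (adjusted p = 0.304) and -0.04 for Pcdhga12 (adjusted p = 0.876). The 3 γ members were thus called lower in the older cohort and not in the young cohort, where the own-exon difference between the cohorts for Pcdhgb8 was 1.29 on the log2 scale (SE 0.30, adjusted p = 0.330).

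**Figure D4:**
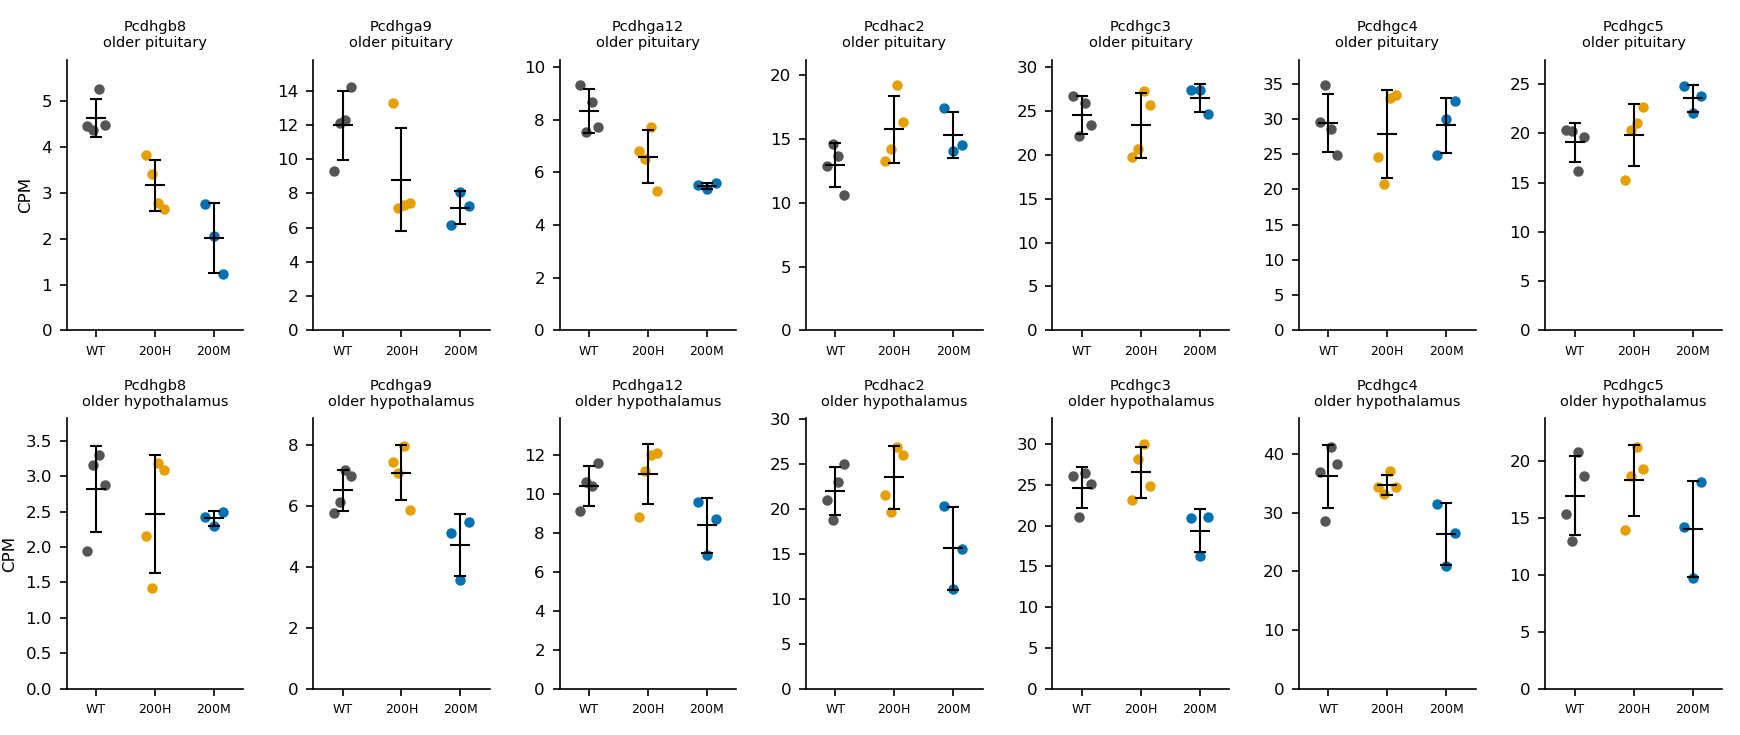
Level (CPM, axes from 0) of 3 γ members and 4 C-types in every library of older pituitary (upper row) and older hypothalamus (lower row) by genotype, with the mean and SD of each group. In pituitary Pcdhgb8 stood at 4.36 to 5.26 CPM in WT and 1.24 to 2.76 in 200M, while Pcdhgc3 and Pcdhgc4 overlapped between the genotypes.

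The C-types, whose promoters are used more evenly, did not pass in the pituitary of either cohort. In older pituitary Pcdhgc5 held 20.3, 20.2, 16.2 and 19.6 CPM in WT and 24.8, 22.1 and 23.8 in 200M, without overlap (log2 0.29, adjusted p = 0.109). Pcdhac2 held 12.9, 14.6, 13.7 and 10.6 CPM in WT and 17.4, 14.1 and 14.5 in 200M, with overlap (log2 0.23, adjusted p = 0.313). Pcdhgc3 held 26.7, 22.1, 25.9 and 23.4 CPM in WT and 27.4, 27.4 and 24.6 in 200M (log2 0.12), Pcdhgc4 29.5, 34.8, 28.5 and 24.9 in WT and 24.8, 29.9 and 32.5 in 200M (log2 -0.02), and Pcdhac1 1.25, 2.14, 3.23 and 1.64 in WT and 1.06, 2.30 and 1.66 in 200M (log2 -0.18). All 3 overlapped between the genotypes. By own-exon counts in young 200M pituitary, Pcdhgc5 had a log2 value of 0.47 over WT (adjusted p = 0.0694), and the other C-types lay between -0.30 (Pcdhac1) and 0.09 (Pcdhgc3). Of the α members with the smallest p in older 200M pituitary, Pcdha2 held 2.92, 2.99, 4.25 and 3.05 CPM in WT and 2.76, 2.81 and 2.28 in 200M, Pcdha3 2.92, 2.14, 2.63 and 2.40 in WT and 2.55, 1.53 and 1.66 in 200M, and Pcdha9 4.17, 6.83, 5.05 and 7.63 in WT and 1.70, 6.65 and 5.59 in 200M, with 0 of the 3 called.

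In older 200H pituitary 2 β members rose and 1 fell among 52 members tested, where 12.2% of 14922 genes were called, 7.09% higher and 5.14% lower, and 9 members had an unadjusted p under 0.05, against 26.2% of genes. Pcdhb17 (ENSMUSG00000046387) held 11.8, 12.6, 13.5 and 16.1 CPM in WT, 19.1, 21.3, 20.0 and 18.8 in 200H and 15.9, 20.1 and 17.8 in 200M. Its 200H libraries stood above WT (log2 0.55, SE 0.13, adjusted p = 0.0130), kept in all 13 alternatives, and 200M did not pass (log2 0.42, adjusted p = 0.0644). Pcdhb16 rose (log2 0.50, SE 0.14, adjusted p = 0.0331). Pcdhb1 held 5.28, 7.17, 6.67 and 7.09 CPM in WT, 3.47, 5.23, 2.97 and 2.86 in 200H and 3.40, 5.37 and 3.73 in 200M. Every 200H library lay below every WT library (log2 -0.83, SE 0.22, adjusted p = 0.0273), whereas 1 of the 200M libraries reached the lowest WT library. The call on Pcdhb1 was lost without WT replicate 2 (0.0833), 3 (0.0543) or 4 (0.0535) or 200H replicate 1 (0.0616), 3 (0.0693) or 4 (0.0848), and that on Pcdhb16 without WT replicate 1 (0.0507), 2 (0.0765) or 3 (0.0800) or 200H replicate 2 (0.0974) or 4 (0.0820). With WT replicate 2 or replicate 3 left out, 1 member was called in all. Between 200M and 200H 0 of 52 members tested were called by edgeR and by DESeq2, with 4 at an unadjusted p under 0.05 (10.6% of genes), and 0.121% of 14862 genes were called.

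The cohorts share no libraries, and their effects on β members can be set side by side. Of 21 β members tested in both, 16 had the same sign of change in 200M, and 20 of 22 had it in 200H. The share of all genes with the same sign in both cohorts is not given. Of 18 γ A and B members, 4 had the same sign in 200M and 5 in 200H, where the cohorts differ in what was counted. In young pituitary all 19 γ A and B members, which share most of their reads, were above 0 in both genotypes. The γ counts therefore only repeat how many members were above 0 in older pituitary. In 200M, Pcdhb9 had log2 fold changes of 0.93 and 0.89 (young and older), Pcdhb10 of 0.63 and 1.10, Pcdhb16 of 0.27 and 0.65, and Pcdhb1 of -0.86 and -0.62. The test of the difference between cohorts called 0.0273% of 18344 genes, and its value for Pcdhb9 was 0.09, for Pcdhb10 -0.42 and for Pcdhb1 -0.19 on the log2 scale, none of them called. It called 1 member, Pcdhgb8 (1.33, SE 0.22, adjusted p = 0.0295), where reads of shared exons in the young libraries are set against own-exon reads in the older ones. That call was lost without any 1 of 10 libraries, namely young WT replicates 1 and 2, young 200M replicates 1, 2, 3 and 4, older WT replicates 2 and 3 and older 200M replicates 2 and 3, with adjusted p from 0.0549 to 0.314.

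In young hypothalamus 0 of 57 members tested were called in 200M by edgeR and by DESeq2, where 0.0200% of 14988 genes were called. Of the members, 25 had an unadjusted p under 0.05, 22 of them higher and 3 lower, against 5.65% of all genes. The 22 higher values were γ members, which share most of their reads in this set. The γ common reads were at 225 ± 10.4 CPM in WT, 249 ± 10.6 in 200H and 258 ± 20.1 in 200M (SD, n = 4 each), and the β sum at 381 ± 23.4, 353 ± 27.0 and 334 ± 17.1. The 3 lower values were β members, among them Pcdhb21 (14.2, 12.9, 13.3 and 17.4 CPM in WT and 9.41, 7.81, 9.01 and 9.67 in 200M, log2 -0.69, adjusted p = 0.811), whose libraries did not overlap. Pcdhb9 held 10.5, 12.7, 8.93 and 11.3 CPM in WT and 16.1, 12.9, 15.7 and 12.1 in 200M, with overlap (log2 0.37, adjusted p = 0.871). In 200H, 0 of 57 were called by edgeR and by DESeq2 (0.0202% of 14877 genes, 20 members at an unadjusted p under 0.05, against 3.93% of genes), and between 200M and 200H 0 (0% of 14812 genes, 1 member at an unadjusted p under 0.05, against 4.60% of genes). The 20 members in 200H were all higher γ members, which share most of their reads in this set.

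In older hypothalamus most α, γ and C-type members were lower in 200M, and 0 of 55 tested were called by edgeR, where 0.00622% of 16067 genes were called. Of the 55, 46 had a fold change below 0 (median log2 -0.35, against 0.02 for all genes), and 20 had an unadjusted p under 0.05, all lower, against 18.1% of all genes. By group, 18 of 18 γ A and B members tested were below 0 (median -0.43), 9 of 10 α members (median -0.47), 5 of 5 C-types (median -0.47) and 14 of 22 β members (median -0.14). The γ sum was 253 ± 32.8 CPM in WT (SD, n = 4), 252 ± 24.2 in 200H (SD, n = 4) and 188 ± 31.8 in 200M (SD, n = 3), and the α sum 50.2 ± 5.86 in WT (SD, n = 4) and 35.5 ± 7.81 in 200M (SD, n = 3).

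Pcdha9 held 4.27, 3.88, 4.87 and 5.44 CPM in older WT hypothalamus and 3.36, 1.95 and 1.71 in 200M, all below WT (log2 -1.01, SE 0.26, adjusted p = 0.116). DESeq2 called Pcdha9 (adjusted p = 0.0330) and Pcdhga5 (adjusted p = 0.0347), and edgeR called Pcdha9 without 200M replicate 1 (adjusted p = 0.0479). The share of all genes that DESeq2 called in older hypothalamus is not given, so its calls cannot be set against the edgeR shares. Pcdhac2 held 21.0, 18.8, 23.0 and 25.0 CPM in WT, 21.5, 19.6, 26.9 and 26.0 in 200H and 20.3, 11.1 and 15.5 in 200M. Pcdhgc4 held 36.9, 28.5, 41.1 and 38.2 CPM in WT and 31.5, 20.9 and 26.6 in 200M. For both genes 200M replicate 2 was the lowest library and 200M replicate 1 lay within WT (log2 -0.50, adjusted p = 0.187 and log2 -0.47, adjusted p = 0.159). Gene length moved with this comparison in the direction opposite to that in older pituitary, with median log2 fold changes over the length quartiles of all genes of 0.18, 0.07, -0.02 and -0.16 from the shortest to the longest, against -0.01 in each quartile in 200H. Its part in these values was not tested. The 8 neuronal markers summed to 4394 to 4944 CPM in WT and 4135 to 4679 in 200M, with 0 of 8 called. In 200H, 0 of 55 members were called by edgeR and by DESeq2 and 0 had an unadjusted p under 0.05 (0% of 15910 genes called, 2.80% at an unadjusted p under 0.05), and between 200M and 200H 0 were called by edgeR and 4 by DESeq2 (0% of 16156 genes by edgeR, 23 members and 19.5% of genes at an unadjusted p under 0.05).

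**Figure D5:**
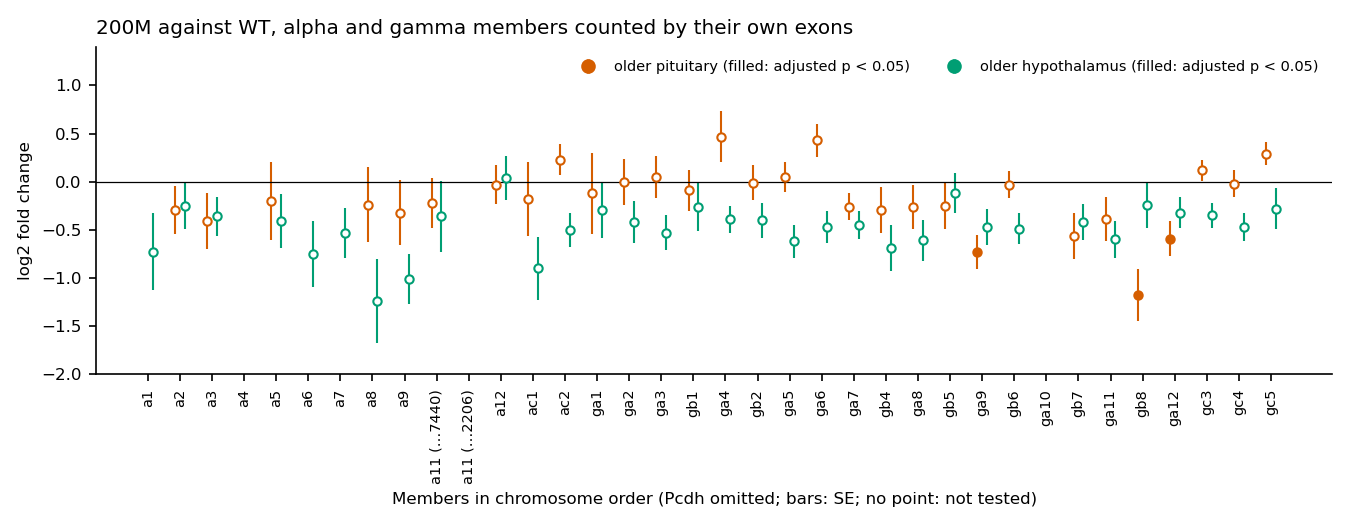
Log2 fold change of 200M against WT (points, with bars of 1 standard error) for α and γ members, in chromosome order, in older pituitary and older hypothalamus, with filled points where the adjusted p was under 0.05. In hypothalamus all 18 γ A and B members tested and all 5 C-types lie below 0 with none called, and in pituitary the 3 filled points are Pcdhga9, Pcdhgb8 and Pcdhga12.

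In the ovary 0 of 57 members tested were called by edgeR and by DESeq2 in any genotype comparison of either cohort. In young ovary 2.58% of 19250 genes were called in 200M and 0.00510% of 19621 in 200H, and 23 and 1 members had an unadjusted p under 0.05, against 16.2% and 7.05% of genes. Of the 23 in 200M, 21 were higher γ members, which share most of their reads in this set, and 2 were lower β members. The member nearest to the threshold was Pcdhgc3, with 217, 207, 230 and 235 CPM in WT, 236, 230, 273 and 222 in 200H and 264, 255, 264 and 269 in 200M, where every 200M library stood above WT (log2 0.24, SE 0.06, adjusted p = 0.0532). Without 200M replicate 2 it was called (adjusted p = 0.0380). By its own-exon counts, 640, 514, 862 and 651 in WT and 792, 808, 569 and 793 in 200M, it was called as well (log2 0.38, SE 0.07, adjusted p = 0.0160). In older ovary 2.71% of 17792 genes were called in 200M and 0% of 17605 in 200H, with 2 and 30 members at an unadjusted p under 0.05, against 16.5% and 6.59% of genes. All 30 were higher α or γ members, which share their reads in this set. Between 200M and 200H, 0% of 19259 genes were called in young and 1.61% of 17855 in older ovary, with 0 and 2 members at an unadjusted p under 0.05, against 3.36% and 13.0% of genes. Of the 6 ovary markers 0 were called in 200M in either cohort.

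Whether the 200M effect differed between tissues was tested directly. Young pituitary against young ovary called Pcdhb9 alone among the members (difference 0.98 on the log2 scale, SE 0.19, adjusted p = 0.00224, kept in all 20 alternatives), where 10.1% of 22130 genes were called. In ovary Pcdhb9 held 14.0, 11.6, 13.1 and 12.1 CPM in WT and 12.5, 12.7, 11.6 and 12.5 in 200M, above its WT pituitary libraries, in tables normalised separately. Young pituitary against young hypothalamus called Pcdhb21 (0.80, SE 0.23, adjusted p = 0.0240) and Pcdhb17 (0.50, SE 0.16, adjusted p = 0.0492), where 10.5% of 17789 genes were called, and Pcdhb9 did not pass (0.56, adjusted p = 0.154). Neither gene was called within a tissue in 200M, and without the young WT pituitary library of column number 3 adjusted p was 0.0592 for Pcdhb21 and 0.165 for Pcdhb17. For Pcdhb21 it was also 0.0700 without young WT hypothalamus replicate 4 and 0.0504 without young 200M hypothalamus replicate 2, and Pcdhb17 was lost without any 1 of 11 libraries (0.0511 to 0.165), namely that WT library, young 200M pituitary replicates 1, 2 and 3, all 4 young WT hypothalamus libraries and young 200M hypothalamus replicates 1, 3 and 4.

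Older pituitary against older hypothalamus called 6 members, all with the higher effect in pituitary, where 17.5% of 17180 genes were called, 10.4% in that direction. Pcdhb10 (1.22, SE 0.30, adjusted p = 0.00834) and Pcdhb16 (0.85, SE 0.23, adjusted p = 0.0149) kept the call in all 18 alternatives. In older hypothalamus Pcdhb10 held 5.94, 5.41, 4.71 and 6.61 CPM in WT and 5.79, 5.25 and 4.70 in 200M, and Pcdhb16 5.57, 4.24, 5.70 and 6.14 in WT and 5.23, 3.90 and 5.20 in 200M, with overlap in both. The others were Pcdhb21 (1.29, SE 0.38, adjusted p = 0.0270), Pcdhb9 (0.77, SE 0.24, adjusted p = 0.0324), Pcdhb18 (0.80, SE 0.27, adjusted p = 0.0453) and Pcdhga6 (0.90, SE 0.25, adjusted p = 0.0197). Each of these 4 was lost without 200M replicate 2 of pituitary (adjusted p 0.0613 to 0.143) and without 200M replicate 2 of hypothalamus (0.0503 to 0.104). Pcdhb9 was also lost without pituitary WT replicate 2 or 3, hypothalamus WT replicate 4 or hypothalamus 200M replicate 3 (0.0525 to 0.0657), and Pcdhga6 without hypothalamus 200M replicate 3 (0.0551). Pcdhb21 was also lost without pituitary WT replicate 2 (0.0607) or hypothalamus WT replicate 3 (0.0532), and Pcdhb18 without pituitary WT replicate 1 or 2, pituitary 200M replicate 3, any 1 of the 4 hypothalamus WT libraries or hypothalamus 200M replicate 3 (0.0510 to 0.102).

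Older pituitary against older ovary called Pcdhgb8 (-1.35, SE 0.24, adjusted p = 0.00561), Pcdhga9 (-0.89, SE 0.20, adjusted p = 0.0191) and Pcdhga12 (-0.76, SE 0.17, adjusted p = 0.0205), where 5.77% of 18736 genes were called, 2.48% in that direction. Own-exon reads in pituitary are set here against reads of shared exons in ovary, and with own-exon counts in both tissues 0 of the 3 were called (adjusted p 0.0586 for Pcdhgb8, 1.000 for Pcdhga9 and 0.138 for Pcdhga12). Pcdhga9 was also lost without older 200M pituitary replicate 1 (0.0661) or 3 (0.0566), and Pcdhga12 without replicate 2 (0.0550). Own-exon counts of these genes in ovary were low, for example 11 to 26 reads per WT library for Pcdhga9.

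Of 12 non-clustered protocadherins, single genes elsewhere in the genome that also encode homophilic adhesion proteins, 2 rose and 3 fell in young 200M pituitary and 5 rose and 2 fell in older 200M pituitary, where 21.5% and 21.4% of all genes were called. Pcdh18 fell in both cohorts (log2 -1.12, adjusted p = 2.24e-05 in young and -0.88 in older), as did Pcdh20 (-0.66 and -0.59), and Pcdh19 rose in both (0.75 and 1.00). Pcdh10 fell (-0.94) and Pcdh15 rose (0.30) in the young cohort, and Pcdh8 (2.04), Pcdh7 (0.94) and Pcdh11x (0.64) were among those that rose in the older cohort. In 200H pituitary 1 rose and 2 fell in the young cohort and 2 rose in the older cohort, where 12.3% and 12.2% of all genes were called. In 200M ovary Pcdh7 fell in both cohorts (-0.37 and -1.31), where 2.58% and 2.71% of all genes were called. In hypothalamus 0 were called, and in older 200M hypothalamus 9 of the 11 tested had an unadjusted p under 0.05 (18.1% of all genes), with a median log2 fold change of -0.31 against 0.02 for all genes.

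Of 20 genes for CTCF, cohesin and other chromatin regulators known to act on the clusters, 1 rose and 2 fell in 200M pituitary of each cohort, where 21.5% and 21.4% of all genes were called. Pds5b, a cohesin cofactor, rose (log2 0.35, adjusted p = 0.000655 in young and 0.42, adjusted p = 0.0163 in older) and Wiz, a CTCF-associated zinc finger gene, fell (-0.25, adjusted p = 0.0333 and -0.38, adjusted p = 0.0140). Dnmt3a, a DNA methyltransferase, fell in the young cohort (-0.27) and Mau2, a cohesin loader subunit, in the older cohort (-0.25). Of the 20, 1 rose and 1 fell in young 200H pituitary and 0 were called in older 200H pituitary, where 12.3% and 12.2% of all genes were called. In hypothalamus and ovary 0 were called. In older 200M hypothalamus 7 of the 20 had an unadjusted p under 0.05 (18.1% of all genes), with a median log2 fold change of -0.21 against 0.02 for all genes. Of 15 genes for signalling partners of the protocadherin cytoplasmic part, 3 rose and 2 fell in 200M pituitary of each cohort, beside the same shares of all genes. Abi2, a subunit of the WAVE actin regulator, rose (0.45 and 0.85), as did the kinase gene Fyn (0.48 and 0.46) and Cyfip1 (0.27 and 0.36), and the kinase gene Ptk2b fell (-0.51 and -0.80). Cyfip2 fell in the young cohort (-0.33) and Axin1 in the older cohort (-0.30). In 200H pituitary 2 rose and 2 fell in the young and 3 rose and 1 fell in the older cohort, beside the same 200H shares of all genes. In hypothalamus and ovary 0 of the signalling partners were called. Of 13 genes that flank the clusters on chromosome 18, 12 were tested in pituitary and 0 were called in any comparison, with median log2 fold changes in 200M of 0.07 in young and -0.05 in older pituitary.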

How the data were processed

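The files used were gene-level raw counts that the authors deposited in 18 tables, for 69 libraries in 6 sets (3 tissues in each of 2 cohorts). The authors aligned reads to mm10 (GRCm38) with STAR 2.7.1a. Young libraries were counted with featureCounts by strand, older pituitary and hypothalamus with HTSeq 0.9.1 without strand, and older ovary with featureCounts without strand. How reads of shared exons entered each table was read from the values. The tables' own fold changes and p-values (DESeq2) were not used, nor were 53 of 188 per-sample columns.

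CPM used TMM factors per tissue and cohort. Each pair of genotypes was fitted alone within a tissue and cohort with edgeR 4.0.16 (R 4.3.3; filterByExpr, quasi-likelihood test, adjusted p under 0.05 over all genes), giving 18 comparisons and 5 tests of differences between effects; the standard error was the log2 fold change divided by the square root of F. Alternatives were DESeq2 1.42.0, RLE scaling, no filter, the 3 genotypes in 1 fit, a replicate block, own-exon counts and leaving out each library. Tests were checked on simulated counts with 200 changed genes. Tables and plots used Python 3.11.15, pandas 2.3.3 and matplotlib 3.10.9. Depth was 3321845 to 14655095 counts a library, and the 99 replicate pairs all differed by more than counting noise (chi-square per degree of freedom 1.87 to 60.9).

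Members, related gene lists (non-clustered protocadherins, chromatin regulators, signalling partners, flanking genes) and cell type markers (neurons, astrocytes and pituicytes, oligodendrocyte lineage, hypothalamic neuropeptides, pituitary endocrine, ovary, endothelium, macrophages) were chosen with earlier results of these data known. Named in full were the 5 C-types, the 3 members of each of the α, β and γ A/B classes with the smallest p in 200M against WT in young and in older pituitary, and members called in hypothalamus, ovary or 200M against 200H. Other called members were named because they were few, and Pcdhb20 and Pcdhb21 after their values were seen. Protocadherin sequences were not used here.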

Additional observations from a re-analysis of the deposited data

Results flagged for a closer look

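Among 99 group values tested in groups of 4, 9 had 1 library far from the other 3, and chance gives about 1 in 20 such groups. In young WT hypothalamus the α common reads of replicate 3 stood at 155 CPM against 131 to 134 in the others. In young 200H ovary replicate 3 stood apart in the α common reads (6.33 CPM against 2.96 to 3.39) and in the γ common reads (182 against 151 to 155). Older WT pituitary replicate 3 stood apart for Pcdhgc5 (16.2 CPM against 19.6 to 20.3), Pcdha2 (4.25 against 2.92 to 3.05) and Pcdhgb8 (5.26 against 4.36 to 4.47), and older 200H pituitary replicate 1 for Pcdhga9 (13.3 against 7.14 to 7.41). In older 200H hypothalamus the γ sum of replicate 3 was 288 CPM against 238 to 244. In older 200M ovary replicate 2 had γ common reads of 265 CPM against 219 to 220, and its own-exon count of Pcdhgc3 was 257 reads against 1147 to 1749 in the other 200M libraries.

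The 200M effect differed between tissues or cohorts, by a test of the difference itself, for 13 values on the log2 scale. Young pituitary exceeded young hypothalamus for Pcdhb21 (0.80) and Pcdhb17 (0.50), and young ovary for Pcdhb9 (0.98). Older pituitary exceeded older hypothalamus for Pcdhb21 (1.29), Pcdhb10 (1.22), Pcdhga6 (0.90), Pcdhb16 (0.85), Pcdhb18 (0.80) and Pcdhb9 (0.77). Older pituitary was below older ovary for Pcdhgb8 (-1.35), Pcdhga9 (-0.89) and Pcdhga12 (-0.76), and young pituitary exceeded older pituitary for Pcdhgb8 (1.33), all 4 between values that count shared exons differently.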

How the results depend on the processing

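The counts in this section show only how far the calls depend on the processing. The share of all genes called under each alternative is not given beside them, so they are not a result about the members. Without the filter on low counts, 7 members were called in young 200M pituitary against WT, 2 in young 200H pituitary, 5 in older 200H pituitary, 9 in older 200M hypothalamus against WT and 8 against 200H. With DESeq2 the count was 2 in young 200H pituitary, 2 in older 200M hypothalamus against WT and 4 against 200H. For the effect in pituitary minus that in another tissue, DESeq2 called 11 (older, hypothalamus) and 5 (older, ovary), and for young minus older pituitary 2. RLE scaling called 1 for young pituitary minus hypothalamus and 0 for young minus older pituitary, where no filter called 0 and 4. Own-exon counts called 1 member in young 200M ovary, 0 for older pituitary minus ovary and 0 for young minus older pituitary.

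With 1 library left out at a time, counts ranged from 2 to 5 in young 200M pituitary, 0 to 4 in young 200H pituitary, 4 to 9 in older 200M pituitary (9 without WT replicate 4), 1 to 3 in older 200H pituitary, 0 to 1 in older 200M hypothalamus and 0 to 1 in young 200M ovary. For differences of effects they ranged from 0 to 3 (young pituitary minus hypothalamus), 1 to 2 (young, ovary), 2 to 10 (older, hypothalamus), 2 to 5 (older, ovary) and 0 to 3 (young minus older pituitary). No called change reversed in these alternatives. Pcdhga9 and Pcdhga12 in young 200M pituitary, which were not called, were above 0 with all reads and at -0.14 and -0.04 by own-exon counts.

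Within a tissue and cohort, the replicate numbers did not pair the genotypes: deviations of the 64 same-numbered pairs correlated at -0.61 to 0.43, and in 0 of 18 pairs of groups were all above 0.1. Whether same-numbered libraries of different tissues came from the same mouse was not examined. The main tests of differences between tissues took all libraries as independent. With a replicate block, which leaves out the young WT pituitary library of column number 3, 0 members were called in young 200H pituitary, 8 in older 200M and 3 in older 200H pituitary, 0 for young pituitary minus hypothalamus and 0 for young minus older pituitary.

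The low counts of Pcdhb10 (11 to 40 reads) and Pcdhgb8 (6 to 51) in older pituitary and the low depth of young hypothalamus limit what could be detected there, and reads of shared exons hide single α and γ members in 4 of the 6 sets.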
